A study of Mus musculus with 12 samples.

Results

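Mirtazapine at 50 µM was compared with control in primary neuronal cultures: 2 arrays titled mirtazapine against 2 arrays titled control, 4 of the 12 arrays of the study. Every probe set annotated with exactly 1 gene symbol was used, 23521 of 41345, and these stand for 22180 genes. Of those, 17467 had a mean signal of at least 5.72 on the log2 scale over all arrays (the 30th percentile of all probe sets) and were tested. The cultures came from the brains of embryos of ICR (CD-1), an outbred mouse stock, and grew in serum-free Neurobasal medium. Drug was added at day in vitro 3, and RNA was taken 48 h later, at day in vitro 5. The other 8 arrays, 2 each for amitriptyline at 5 µM, imipramine at 5 µM, citalopram at 10 µM and duloxetine at 0.1 µM, came from the same stock at the same age and exposure. They contributed to the estimate of the spread and, apart from duloxetine, to a second comparison. How the control cultures were treated is not stated in the sources used here. Whether the replicates are separate cultures or animals is not stated in the labels either, so a p-value reflects only how far these samples vary, which may be technical.

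Mirtazapine is a tetracyclic antidepressant. Amitriptyline, imipramine, citalopram and duloxetine all block the reuptake of monoamines, whereas mirtazapine hardly acts on the transporters and instead blocks receptors: the alpha2 adrenergic autoreceptors that restrain noradrenaline release, serotonin receptors of types 2 and 3, and the histamine H1 receptor. Embryonic neuronal cultures of this kind hold mainly young neurons that are growing axons and making synapses, along with dividing progenitors and the glial cells that arise from them.

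All values are expression levels on a log2 scale, so a difference of 1 is a 2-fold change, and a level is compared only with the same gene's level on other arrays. In the limma model the 95% interval of a difference between mirtazapine and control was 0.28 log2 units wide on each side for the median gene, and the number of arrays limits this precision. All 20 neuron markers passed the filter, as did 17467 of 22180 genes, so that passing it says little of the makeup of the cultures. Among them was Stmn2, which encodes a tubulin-binding protein of growing axons, at 12.90 and 13.01 in control and 12.94 and 12.87 under mirtazapine. Markers of other cells were also above the filter, 20 of 23 for astrocytes, 16 of 18 for the oligodendrocyte lineage, 19 of 22 for microglia and 14 of 18 for endothelium. Mirtazapine replicate 2 stood apart from most of the other arrays. Along the first principal component it lay at 36.4, beside duloxetine replicate 2 at 32.6, while mirtazapine replicate 1 lay at 3.9 and the other 9 arrays lower still. Its values were also compressed, with a slope of 0.908 on the mean of the other arrays, against 0.998 for mirtazapine replicate 1. Each mirtazapine array is therefore reported by itself as well.

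Mirtazapine lowered many more genes than it raised. Over all tested genes, called or not, 9622 differed downward and 7701 upward. At an adjusted p under 0.05 in limma, 304 of 17467 genes were called (1.74%), of which 47 rose (0.269%) and 257 fell (1.47%). The changes were moderate: 9 rising and 30 falling genes differed 2-fold or more, and 11 rising and 59 falling genes differed by less than 1.5-fold. On replicate 1 the rising genes lay a median of 0.63 above the control mean and on replicate 2 a median of 0.71 above it. The falling genes lay a median of 0.64 below control on replicate 1 and 0.78 below it on replicate 2. For 34 of the 47 rising and 197 of the 257 falling genes, both mirtazapine arrays differed from the control mean by more than 0.5. In all 304 the mirtazapine arrays did not overlap the control arrays, but 53.2% of all tested genes did not overlap either (22.6% higher under mirtazapine and 30.6% lower), so non-overlap by itself says little here. After a second quantile normalization 4390 genes lay higher without overlap and 4466 lower, and 82 genes rose and 266 fell.

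The number of calls depended strongly on single arrays. Without both arrays that stand apart, only 1 mirtazapine array remained. The pooled spread then no longer held the distance between replicates of mirtazapine or of duloxetine. Calls kept in that fit are therefore no replication. Without mirtazapine replicate 2 it was 8 (1692 genes at an unadjusted p under 0.05), without mirtazapine replicate 1 it was 1450, without control replicate 1 it was 0 (2190 genes at an unadjusted p under 0.05) and without control replicate 2 it was 116. Arrays of the other drugs mattered through the pooled spread: leaving out 1 array gave 139 calls for amitriptyline, 66 for citalopram, 148 for imipramine and 1328 for duloxetine, whichever replicate was dropped. Without both arrays that stand apart, 370 genes were called, 224 of them among the 304. Of the called genes named in the text, Cck, Tacr3, Grp, Calb2, Hes5 and Lpl kept their call without mirtazapine replicate 2, and none kept it without control replicate 1.

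**Figure D1:**
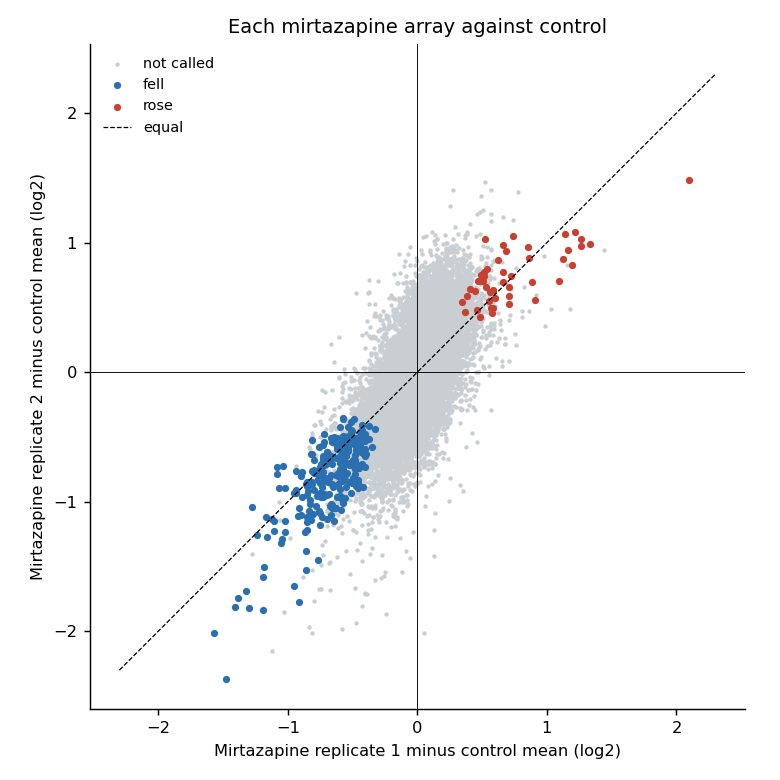
Difference of each tested gene from the control mean on mirtazapine replicate 1 (horizontal, log2) and on mirtazapine replicate 2 (vertical, log2), with the 47 genes that rose in red, the 257 that fell in blue, the others in grey and a dashed line of equality. Both axes use the same control mean, and 213 of the 304 called genes lie farther from 0 on replicate 2 than on replicate 1.

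Among the 20 falling genes of lowest p were 3 neuropeptide precursors and 1 neuropeptide receptor. Neuropeptides are small secreted proteins that modulate synapses through G protein-coupled receptors, and each is made by limited sets of neurons. Cck, the precursor of cholecystokinin, stood at 10.97 and 10.88 in the control arrays and at 9.82 and 9.70 under mirtazapine. Tacr3, the neurokinin 3 receptor that answers to neurokinin B, stood at 8.31 and 8.14 in control and at 6.84 and 6.48 under mirtazapine. Both mirtazapine arrays lay at least 1 log2 unit below both control arrays for each gene. Tacr3 fell 2.96-fold (log2 difference -1.57 ± 0.13 SE, adjusted p = 0.0056 in limma) and Cck fell 2.24-fold (-1.17 ± 0.10, adjusted p = 0.0056). Nts, the neurotensin precursor, read 9.54 and 9.12 in control and 7.76 and 7.32 under mirtazapine. That is a 3.46-fold fall (-1.79 ± 0.21, adjusted p = 0.01). Grp, which encodes gastrin-releasing peptide, read 9.40 and 9.39 in control and 8.33 and 8.50 under mirtazapine, a 1.97-fold fall (-0.98 ± 0.10, adjusted p = 0.00681). In bulk RNA, fewer cells that make a transcript and less of that transcript per cell cannot be told apart.

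These 3 peptides did not stand for their class. Of 29 neuropeptide precursors tested, 3 fell and 0 rose, while 21 differed upward and 8 downward. Over all 17467 genes 7701 differed upward and 9622 downward. The precursors had a median of 0.17, but 0.02 on replicate 1 and 0.24 on replicate 2, against -0.04 over all genes. The list was dim, with control medians of 7.24 and 7.25 against 8.02 over all genes. The 5829 dimmest genes lay at 0.07 on replicate 1 and 0.27 on replicate 2, and the 5816 of middle signal at -0.06 and -0.15. The list held brighter members too, such as Cck. The part of signal level in its median was not tested. Sst, the somatostatin precursor of a class of inhibitory neurons, read 12.25 and 12.21 in control and 12.72 and 12.76 under mirtazapine. The arrays did not overlap for Sst, but its difference of 0.51 missed the threshold (adjusted p = 0.0515). Of 32 neuropeptide receptors, 4 fell and 0 rose, with a median of -0.04. Besides Tacr3 these were Adcyap1r1, the receptor for the peptide PACAP (-0.66 ± 0.11, adjusted p = 0.0238), and the somatostatin receptors Sstr1 (-0.53 ± 0.09, adjusted p = 0.0255) and Sstr4 (-0.57 ± 0.11, adjusted p = 0.038). Sstr4 passed in 7 of 21 alternatives. Without both arrays that stand apart, 3 precursors and 4 receptors fell and 1 precursor rose. Without mirtazapine replicate 2 the falls were 2 precursors (Cck and Grp) and 1 receptor (Tacr3), and without control replicate 1 there were none. Without either duloxetine array 2 precursors rose, and without mirtazapine replicate 1, 1 precursor and 1 receptor rose.

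**Figure D2:**
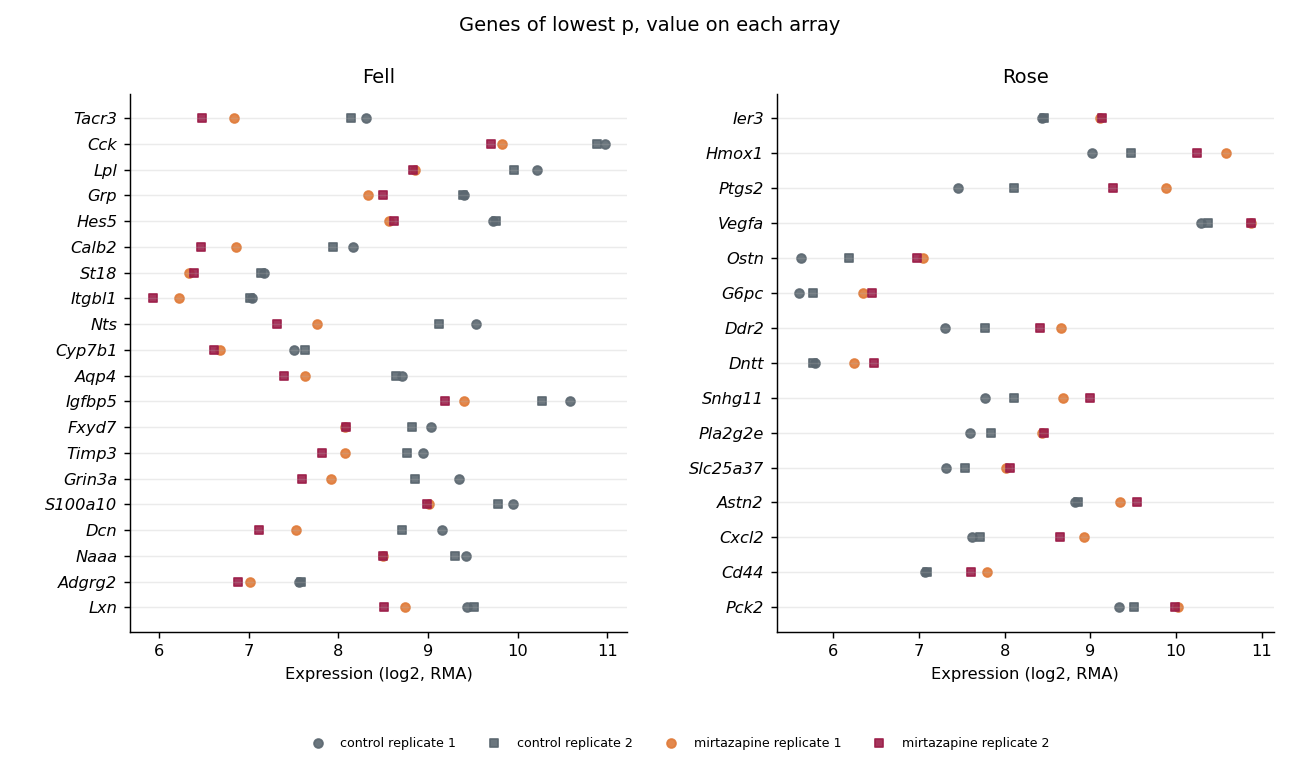
Expression (log2, RMA) of the 20 falling genes (left) and 15 rising genes (right) of lowest p on each of the 4 arrays, with grey for control, orange and red for mirtazapine, circles for replicate 1 and squares for replicate 2. In every gene shown both mirtazapine arrays lie to the same side of both control arrays, and the gap is wide beside the distance between replicates for Tacr3, Cck, Hes5 and Vegfa.

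Calb2, the calcium-binding protein calretinin that marks Cajal-Retzius cells and a class of interneurons, was 8.16 and 7.94 in control and 6.86 and 6.47 under mirtazapine. It fell 2.61-fold (-1.39 ± 0.14, adjusted p = 0.00751). No other marker of either class was called in the fit to all arrays. Of 19 markers of Cajal-Retzius and subplate neurons, Calb2 alone fell, and the median difference was -0.01. Of 27 markers of inhibitory neurons, again only Calb2 fell, while 18 differed upward, against 7701 of all 17467 genes. Their median was 0.15 (0.13 on replicate 1 and 0.18 on replicate 2). The count that rose was 0 with all arrays, 3 without both arrays that stand apart, 4 without mirtazapine replicate 1, 6 without either duloxetine array and 3 after a second quantile normalization. Without control replicate 1 it was 0 and the median 0.05. Gad2, an enzyme that makes GABA, was 8.64 and 9.0 in control and 9.68 and 9.29 under mirtazapine, and Gad1, the other such enzyme, 7.68 and 7.81 against 8.16 and 8.38. Neither passed the test (differences of 0.67 and 0.53, adjusted p = 0.0796 and 0.0629). Markers of excitatory neurons leaned the other way, with a median of -0.21 (-0.15 on replicate 1 and -0.31 on replicate 2). Their control medians were high, 9.43 and 9.41, and the 5822 brightest genes lay at -0.03 and -0.18 on the replicates. Of all 17467 genes 9622 differed downward and 5340 lay lower without overlap, and of the 23 markers 20 and 15 did. One fell, Slc17a7, the vesicular glutamate transporter VGLUT1, from 9.74 and 10.02 to 9.30 and 9.04 (-0.71 ± 0.14, adjusted p = 0.0365). It was not called without mirtazapine replicate 2 (adjusted p = 0.232) or without both arrays that stand apart (0.0945). The general neuron markers gave 0 calls in limma among 20 (lowest adjusted p = 0.0635, for the neurofilament gene Nefl). Of the 20, 4 had an unadjusted p under 0.05, all lower, against 3916 of all 17467 genes. Their median was -0.09, -0.02 on replicate 1 and -0.14 on replicate 2.

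Genes of the neuronal membrane and of axon growth supplied further falls. Grin3a encodes an NMDA receptor subunit of young neurons that lowers calcium entry. Its levels were 9.35 and 8.85 in control and 7.92 and 7.60 under mirtazapine, a 2.53-fold fall (-1.34 ± 0.16, adjusted p = 0.0107). Trpc5, a cation channel of growth cones, went from 9.55 and 9.27 to 8.46 and 7.76 (-1.30 ± 0.20, adjusted p = 0.0195), with mirtazapine replicate 2 clearly the lower. It was the 1 call among 39 ion channel genes, whose median difference was -0.02. Fxyd7, a regulator of the sodium pump, went from 9.03 and 8.82 to 8.07 and 8.08 (adjusted p = 0.0107). Among 45 axon guidance genes 3 fell and 0 rose, with medians of -0.03 on replicate 1 and -0.27 on replicate 2. They were the semaphorin receptors Nrp2 (-1.12 ± 0.18, adjusted p = 0.021) and Nrp1 (-0.93 ± 0.18, adjusted p = 0.0351) and the Robo ligand Slit3 (-0.51 ± 0.09, adjusted p = 0.0287). Nrp2 lay 0.86 below the control mean on replicate 1 and 1.38 below it on replicate 2. Of 40 synaptic genes, Nptx1, a secreted pentraxin that gathers AMPA receptors, fell (-0.65 ± 0.11, adjusted p = 0.0228), and Nrxn3, a presynaptic adhesion protein, rose from 9.55 and 9.62 to 10.07 and 10.01 (0.46 ± 0.09, adjusted p = 0.0339). S100a10, also called p11, an annexin partner that has been studied in depression, went from 9.95 and 9.78 to 9.01 and 8.99. Its 1.82-fold fall was nearly equal on both mirtazapine arrays (adjusted p = 0.0107).

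Among the receptors that mirtazapine blocks, 7 of 9 were tested, since Adra2a and Adra2b were not analysed here, and 1 was called. Htr2c, the serotonin 2C receptor, was 6.57 and 6.47 in control, 6.10 on mirtazapine replicate 1 and 5.63 on replicate 2. The difference of -0.66 ± 0.13 passed the threshold (adjusted p = 0.0433), with replicate 2 farther below control and just under the filter on dim signal. It held in 6 of 20 alternatives, and without mirtazapine replicate 2 the difference was -0.42 (adjusted p = 0.156). Htr2b and Htr3b, 2 other serotonin receptors, differed by 0.52 (adjusted p = 0.204) and 0.53 (adjusted p = 0.148). For Htr2b the lower control array, at 5.56, was below the filter and the other at 6.25, against 6.32 and 6.52 under mirtazapine. Hrh1, the histamine H1 receptor, read 6.69 and 6.91 in control and 6.91 and 7.09 under mirtazapine. Its groups met at 6.91, and it was not called (difference 0.20, adjusted p = 0.369 in limma). Htr2a read 8.71 and 9.18 against 8.97 and 8.80, so that the groups overlapped. Htr3a (difference -0.01, 95% interval -0.21 to 0.20) and Adra2c (-0.02, -0.29 to 0.26) lay at the control level within these intervals. Of 22 other genes of monoamine receptors, transporters and enzymes, 0 were called by limma (median -0.04). Of the 22, 11 had an unadjusted p under 0.05 (3 higher and 8 lower), against 3916 of all 17467 genes. The lowest p belonged to Maob, a monoamine oxidase (-0.53, adjusted p = 0.106 in limma).

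**Figure D3:**
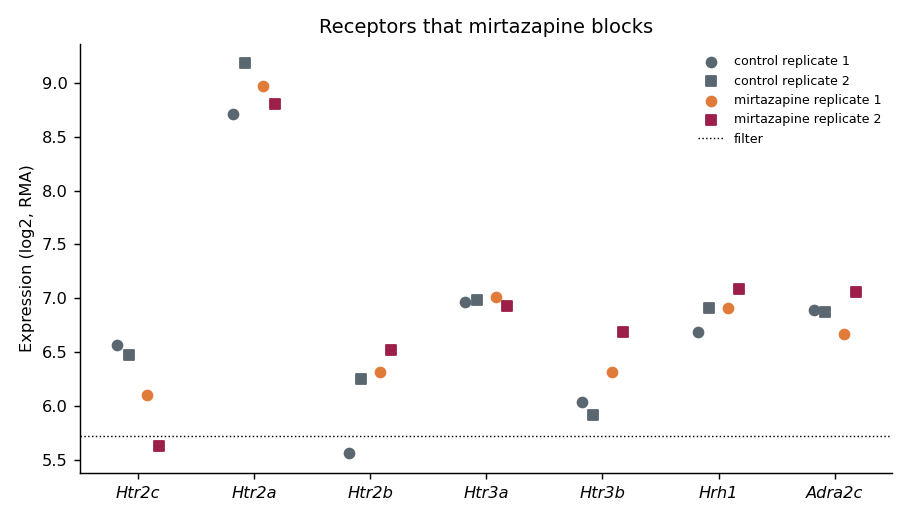
Expression (log2, RMA) of the 7 tested receptors that mirtazapine blocks on the 2 control arrays (grey) and the 2 mirtazapine arrays (orange and red), with the filter on dim signal as a dotted line. Htr2c lies lower on both mirtazapine arrays, farthest on replicate 2, and Htr2a, Htr3a, Adra2c and Hrh1 overlap or touch control.

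The list with the most falls was that of dividing cells. Of 50 genes of mitosis and DNA replication tested, 15 fell and 0 rose, 48 differed downward, and 44 lay below control without overlap. Their median difference was -0.55 (-0.49 on replicate 1 and -0.57 on replicate 2), against -0.04 over all genes. Of all 17467 genes 1.47% fell, 9622 differed downward and 30.6% lay lower without overlap. Cdk1, the kinase that drives entry into mitosis, was 8.71 and 8.47 in control and 7.68 and 7.54 under mirtazapine. Top2a, the topoisomerase that untangles replicated DNA, was 8.45 and 8.26 in control and 7.33 and 7.21 under mirtazapine. For each the replicates lay within 0.25 of each other and the groups about 1 apart, with differences of -0.98 ± 0.14 and -1.09 ± 0.16 (both adjusted p = 0.0182). The other named falls were Nusap1 (-1.0), a spindle protein, Mcm5 (-0.77), a subunit of the replicative helicase, Ube2c (-0.84) and Cdc20 (-0.50), which direct cyclin destruction, Ccnb2 (-0.56), a mitotic cyclin, and Uhrf1 (-0.53), which maintains DNA methylation at replication. Ube2c differed between the mirtazapine arrays, at 8.06 and 7.65. The members that differed upward were Ccnd1 (0.15) and Tyms (0.08), neither of them called. Without both arrays that stand apart 17 members fell and the median was -0.49. Without mirtazapine replicate 2 alone, or without control replicate 1, none was called.

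Many genes of late cell division share promoter elements, the CCAAT box bound by NF-Y and the cell cycle homology region, TTTGAA, through which the MuvB complexes act. The 150 bases before the start of 4 of the genes that fell are shown as examples of how these elements lie in the named members, 5 of which hold both in the 300 base promoter window. They come from RefSeq on GRCm38.p6, are written 5′ to 3′ on the gene's strand, and have in capitals each CCAAT or its reverse ATTGG and each TTTGAA or its reverse TTCAAA.
Cdk1 (chr10:69352913-69353062, minus strand): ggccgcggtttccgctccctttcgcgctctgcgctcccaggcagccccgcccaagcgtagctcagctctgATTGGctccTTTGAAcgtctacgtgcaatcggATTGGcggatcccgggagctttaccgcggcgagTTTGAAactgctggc
Top2a (chr11:99024190-99024339, minus strand): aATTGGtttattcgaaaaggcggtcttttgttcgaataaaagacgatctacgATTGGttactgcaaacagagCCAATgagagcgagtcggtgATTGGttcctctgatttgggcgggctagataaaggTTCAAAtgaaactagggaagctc
Ube2c (chr2:164769779-164769928, plus strand): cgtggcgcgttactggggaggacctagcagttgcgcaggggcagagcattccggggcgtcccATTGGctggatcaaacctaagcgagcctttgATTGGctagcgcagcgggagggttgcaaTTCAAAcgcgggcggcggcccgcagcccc
Ccnb2 (chr9:70421555-70421704, minus strand): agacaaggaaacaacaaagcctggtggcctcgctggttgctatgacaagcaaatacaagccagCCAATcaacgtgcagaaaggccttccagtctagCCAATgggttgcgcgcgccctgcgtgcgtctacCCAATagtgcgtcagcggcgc
The printed stretch of Cdk1 holds 2 CCAAT boxes and 2 matches of the homology region, that of Top2a 4 and 1, that of Ube2c 2 and 1, and that of Ccnb2 3 and 0, its match of the homology region lying outside the stretch. Searched on both strands from 250 bases before to 50 after the start, both elements occurred in 8 of the 13 fallen cell cycle genes with a promoter in the table (61.5%) and in 11 of 29 that were not called (37.9%). They occurred together in 5.99% of the 13480 tested genes with a promoter. Alone, the CCAAT box occurred in 41.5% and the homology region in 14.9% of those genes. A match is a description of the sequence, not a bound site.

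Some markers of astrocytes, radial glia and the oligodendrocyte lineage fell as well. Of 20 astrocyte markers 5 fell, 0 rose and 18 differed downward, with a median of -0.37 (-0.31 on replicate 1 and -0.42 on replicate 2). Over all 17467 genes 1.47% fell, 9622 differed downward and the median was -0.04. Aqp4, the water channel of astrocyte endfeet, stood at 8.71 and 8.64 in control and at 7.63 and 7.39 under mirtazapine, a 2.24-fold fall (-1.17 ± 0.14, adjusted p = 0.01). Gfap, the intermediate filament of astrocytes, stood at 8.89 and 8.85 in control and at 8.21 and 8.33 under mirtazapine (-0.60 ± 0.10, adjusted p = 0.0214). Mlc1, a membrane protein of the endfeet (-0.72), Glul, glutamine synthetase (-0.54), and Ndrg2 (-0.69) also fell. The 5 calls were lost when mirtazapine replicate 2 alone or control replicate 1 was left out. Without both arrays that stand apart, which left 1 mirtazapine array, the list's median was -0.31. Of 21 radial glia markers 2 fell, 0 rose and 18 differed downward (median -0.26). Of 16 oligodendrocyte lineage markers Olig1, a transcription factor of that lineage, fell from 10.52 and 10.89 to 9.89 and 9.86 (-0.83 ± 0.14, adjusted p = 0.0223), and 14 differed downward. Olig1 missed the threshold without both arrays that stand apart (adjusted p = 0.0511). Microglia markers had 0 calls in limma among 19, and 1 had an unadjusted p under 0.05 (lowest adjusted p = 0.102, for Cd68). Their median difference was 0.17 (0.09 on replicate 1 and 0.21 on replicate 2). Of the 19, 13 differed upward, against 7701 of all 17467 genes. Without overlap 6 lay higher and 0 lower, against 22.6% and 30.6% of all genes. Median levels of these markers were 7.03 and 6.70 on the control arrays and 6.75 and 6.85 on the mirtazapine arrays. The medians of the astrocyte, radial glia, oligodendrocyte and cell cycle lists were all below 0 on both mirtazapine arrays, and the part of any of them in the fall of another was not tested.

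Hes5 had the lowest p among the radial glia and Notch genes. It is a Notch target that holds neural stem cells and glial precursors in their state, and it stood at 9.72 and 9.76 in control and at 8.57 and 8.62 under mirtazapine. The replicates lay within 0.05 of each other in both groups, and the fall was 2.21-fold (-1.15 ± 0.12, adjusted p = 0.00681). A second, dimmer probe set for Hes5 differed by -0.07. Notch2, a receptor of the pathway, fell from 8.59 and 8.41 to 7.80 and 7.81 (-0.70 ± 0.12, adjusted p = 0.0228). The other 20 of 22 Notch pathway genes were not called, and the list's median was -0.14. Veph1 was the other radial glia marker that fell (-0.72 ± 0.12, adjusted p = 0.0224). St18, a zinc finger transcription factor of neural differentiation, read 7.17 and 7.14 in control and 6.34 and 6.39 under mirtazapine (-0.79 ± 0.09, adjusted p = 0.01).

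Genes of secreted and matrix proteins were also among the falls of lowest p. Dcn, the matrix proteoglycan decorin that fibroblasts of the meninges make, read 9.16 and 8.71 in control and 7.53 and 7.12 under mirtazapine, a 3.05-fold fall (-1.61 ± 0.20, adjusted p = 0.0115). It was the 1 call among 19 mural and fibroblast markers, of which 11 differed upward. Igfbp5, a binding protein of insulin-like growth factors, went from 10.58 and 10.27 to 9.40 and 9.19, a 2.19-fold fall (adjusted p = 0.01). Of 37 matrix genes 3 fell and 1 rose. Timp3, an inhibitor of metalloproteinases, fell by 0.91 (adjusted p = 0.0107), Itgbl1, an integrin-like secreted protein, by 0.95 (adjusted p = 0.01), and Bcan, the brain proteoglycan brevican, by 0.78 (adjusted p = 0.0223). Ddr2, a receptor tyrosine kinase for collagen, rose from 7.30 and 7.77 to 8.66 and 8.41, a 2-fold rise (1.00 ± 0.15, adjusted p = 0.0195). Lxn, a carboxypeptidase inhibitor, Adgrg2, an adhesion receptor, and Vcam1, an adhesion molecule of vessels and of neural stem cells, fell by 0.85, 0.63 and 0.80.

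Lipid genes were led by Lpl. Lipoprotein lipase, which frees fatty acids from circulating fat, stood at 10.22 and 9.96 in control and at 8.85 and 8.83 under mirtazapine. The fall was 2.38-fold (-1.25 ± 0.12, adjusted p = 0.00681), and a second, dimmer probe set differed by -0.83. Cyp7b1, which hydroxylates oxysterols and neurosteroids, fell from 7.51 and 7.63 to 6.68 and 6.61 (-0.93 ± 0.11, adjusted p = 0.01). Naaa, the lysosomal amidase that breaks down palmitoylethanolamide, fell from 9.42 and 9.30 to 8.50 on both arrays (-0.86 ± 0.11, adjusted p = 0.0127). In the sterol and lipid list 26 of 35 genes differed upward, against 7701 of all 17467 genes. The list's median was 0.15 (0.21 on replicate 1 and 0.07 on replicate 2), and 0.04 without control replicate 1. Lss, a cyclase of cholesterol synthesis, was the 1 gene of it that rose (0.53 ± 0.11, adjusted p = 0.049), and it did so in 6 of 21 alternatives.

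Several of the rising genes of lowest p are known from stress and inflammation. Of 24 chemokine, cytokine and acute phase genes tested, though, 2 rose (Ptgs2 and Cxcl2) and 1 fell (Vcam1). Their median was 0.10 (0.06 on replicate 1 and 0.19 on replicate 2). Il1a, Il1b, Il6 and Ccl12 were below the filter. Ptgs2, the inducible prostaglandin synthase, was 7.45 and 8.11 in control and 9.88 and 9.26 under mirtazapine. The arrays of each group differed by more than 0.5, and the groups by more than 1 at their nearest. The rise was 3.46-fold (1.79 ± 0.25, adjusted p = 0.0173). Hmox1, which encodes the heme oxygenase that stress induces, was 9.02 and 9.48 in control and 10.58 and 10.24 under mirtazapine, a 2.24-fold rise (1.16 ± 0.15, adjusted p = 0.0153). Cxcl2, a chemokine that draws neutrophils, rose from 7.62 and 7.71 to 8.93 and 8.64 (1.12 ± 0.18, adjusted p = 0.0223). Ier3, an early response gene of stress and survival signalling, rose from 8.43 and 8.46 to 9.11 and 9.14 (0.68 ± 0.09, adjusted p = 0.0145). Ptgs2, Hmox1 and Cxcl2 lay farther from control on mirtazapine replicate 1 than on replicate 2. Over all calls, 26 of the 47 rising and 187 of the 257 falling genes lay farther from control on replicate 2. Cd44, a hyaluronan receptor, and Pla2g2e, a secreted phospholipase, rose by 0.62 and 0.73 (adjusted p = 0.0223 and 0.0205).

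By list, 4 of 37 integrated stress response genes rose, 0 fell and 31 differed upward, 21 of them without overlap (median 0.22, 0.25 on replicate 1 and 0.16 on replicate 2). Over all 17467 genes 0.269% rose, 7701 differed upward and 22.6% lay higher without overlap. The integrated stress response slows translation and induces genes through the transcription factor ATF4. Pck2, a mitochondrial enzyme of gluconeogenesis, read 9.33 and 9.51 in control and 10.02 and 9.99 under mirtazapine (0.59 ± 0.10, adjusted p = 0.0228). Atf3, a stress transcription factor, read 8.33 and 8.64 in control and 9.35 and 9.37 under mirtazapine (0.88 ± 0.15, adjusted p = 0.0228). Nupr1, a stress protein (0.79), and Ppp1r15a, the phosphatase subunit that ends the response (0.54), rose too, the last in 8 of 21 alternatives. Chaperones of the endoplasmic reticulum and heat shock had 0 calls in limma among 29 (4 at an unadjusted p under 0.05; lowest adjusted p = 0.0874, for Hyou1). Of 24 antioxidant genes under NRF2, 3 rose and 0 fell, with a median of 0.11. These were Hmox1, Srxn1, which repairs peroxiredoxins (8.98 and 9.48 to 10.39 and 10.17), and Abcc4, a drug and conjugate exporter (7.16 and 7.74 to 8.64 and 8.28). Of 37 immediate early genes, 4 rose and 0 fell, and the median was 0.05. Of these, Ptgs2, Ier3 and Atf3 are stress-inducible, and Klf4 is a transcription factor of growth arrest (0.75, adjusted p = 0.0297). Without both arrays that stand apart, 4 integrated stress, 4 NRF2 and 3 immediate early genes rose. Without mirtazapine replicate 2, or without control replicate 1, none did.

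**Figure D4:**
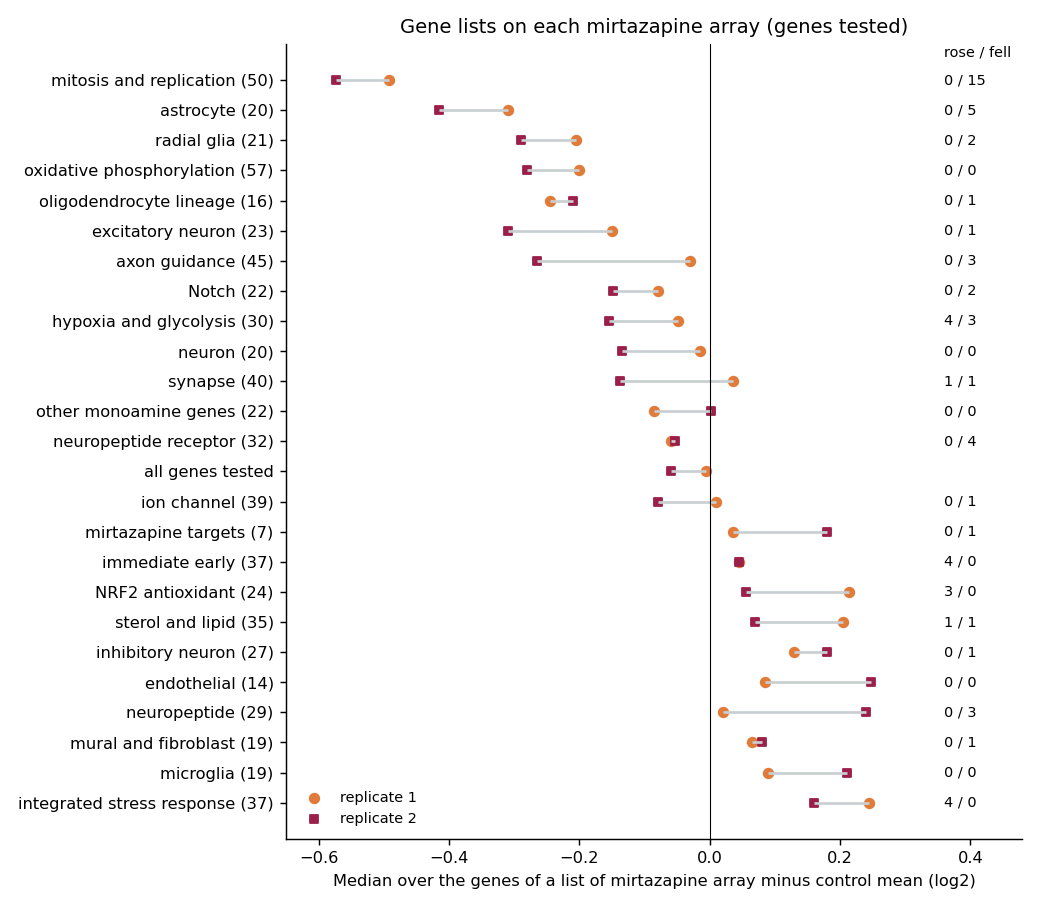
Median over the genes of each list of the difference from the control mean (log2), on mirtazapine replicate 1 (orange circles) and replicate 2 (red squares), with the number of genes tested in brackets and the numbers that rose and fell at the right. Mitosis and replication genes lie lowest on both arrays at -0.49 and -0.57, and integrated stress genes lie at 0.25 and 0.16.

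Genes of hypoxia and glycolysis moved in both directions, with 4 rises and 3 falls among 30. Vegfa, the vascular growth factor that also protects neurons, read 10.29 and 10.37 in control and 10.88 on both mirtazapine arrays. The rise was 1.46-fold (0.55 ± 0.08, adjusted p = 0.0194), large beside the distance between the control arrays. Ero1a, an oxidase for protein folding (0.90, adjusted p = 0.0277), Slc2a1, the glucose transporter GLUT1 (0.65, adjusted p = 0.0294), and Pfkfb3, an activator of glycolysis (0.42, adjusted p = 0.047), also rose. Pfkfb3 passed in 6 of 21 alternatives and missed the threshold without both arrays that stand apart (adjusted p = 0.0875). The dimmer probe sets of Ero1a and Slc2a1 each differed by 0.07. Egln3, an oxygen sensor (-1.04, adjusted p = 0.0233), Car12, a carbonic anhydrase (-0.70, adjusted p = 0.0182), and Tpi1, a glycolytic enzyme (-0.49, adjusted p = 0.0437), fell. Hgf, another growth factor, fell from 7.75 and 7.4 to 6.72 and 6.46 (-0.99 ± 0.20, adjusted p = 0.0436), so that among 17 trophic factor genes 1 rose and 1 fell. Tpi1 and Hgf each passed in 8 of 21 alternatives. Nuclear genes of oxidative phosphorylation had 0 calls in limma among 57. Yet 27 had an unadjusted p under 0.05 (26 lower), against 3916 of all 17467 genes. Of the 57, 54 differed downward and 43 lay below control without overlap, against 9622 and 5340 of all genes. Their median was -0.25 (-0.20 and -0.28 on the replicates) and -0.16 after a second quantile normalization. The list was bright, at control medians of 10.15 and 10.28, and the 5822 brightest genes lay at -0.03 and -0.18 on the replicates. Cox5a, a subunit of cytochrome oxidase, came nearest, at 9.43 and 9.37 in control and 8.86 and 8.89 under mirtazapine (adjusted p = 0.0524), and 3 of the list were called without both arrays that stand apart.

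The remaining rises of lowest p belonged to varied functions. Ostn, the secreted peptide osteocrin, read 5.62 and 6.18 in control and 7.04 and 6.97 under mirtazapine, a 2.15-fold rise (1.11 ± 0.17, adjusted p = 0.0195). Its lower control array was below the filter on dim signal. G6pc, glucose-6-phosphatase, and Dntt, a DNA polymerase of lymphocytes, rose from near the filter, from 5.6 and 5.76 to 6.34 and 6.45 and from 5.78 and 5.76 to 6.24 and 6.47. Snhg11, a long non-coding RNA of neurons, rose from 7.77 and 8.11 to 8.68 and 8.99, and its second probe set differed by 0.52. Slc25a37, the mitochondrial iron importer mitoferrin 1, rose from 7.31 and 7.54 to 8.01 and 8.06. Astn2, a protein of neuron migration, rose from 8.82 and 8.85 to 9.34 and 9.54. The last 3 passed at adjusted p = 0.0205, 0.0211 and 0.0214 in limma.

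Of the cell death genes of the Bcl2 and caspase lists, Casp6, an effector caspase of axon pruning, alone was called among 23. It fell from 8.05 and 7.73 to 7.09 and 6.98 (-0.86 ± 0.14, adjusted p = 0.0224). Of 25 genes of histone deacetylases and DNA methylation, Uhrf1 alone was called, and it is also a member of the cell cycle list. Cell cycle inhibitors and p53 targets had 0 calls in limma among 22 and 10 genes at an unadjusted p under 0.05, the lowest p belonging to Cdkn2c (-0.82, adjusted p = 0.058). Of all 17467 genes 3916 had an unadjusted p under 0.05. Interferon genes had 0 calls in limma among 17 (3 at an unadjusted p under 0.05) and endothelial markers 0 among 14 (2 at an unadjusted p under 0.05), with lowest adjusted p of 0.055 (Ifit2) and 0.152 (Eng). Of 32 lysosome and autophagy genes Gpnmb rose (0.65, adjusted p = 0.0485) and Wipi1 fell (-0.44, adjusted p = 0.0484). These passed in 7 and 6 of 21 alternatives. A set of 14 long transcripts and common reference genes was kept as a sign of RNA quality and array scale. It had 0 calls in limma (2 at an unadjusted p under 0.05, and lowest adjusted p = 0.0565, for Pgk1). Its median was -0.13, -0.04 on replicate 1 and -0.24 on replicate 2, the array that stands apart.

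The mirtazapine arrays themselves differed widely for some genes. Between them 47 genes differed 2-fold or more, against 20 between the control arrays, and 63.5% of genes lay within 0.25 of each other, against 87.0%. On replicate 1, 44 genes lay more than 1 from the control mean, 14 higher and 30 lower, and on replicate 2 this was 224, 38 higher and 186 lower. Only 29 did so on both in the same direction, 4 higher and 25 lower. Tuba1b, a tubulin, read 8.47 on replicate 1, near the control arrays at 8.28 and 8.56, and 6.41 on replicate 2. Gnpnat1, an enzyme of amino sugar synthesis, read 9.13 and 7.58 against 8.90 and 9.10 in control, and was also low on duloxetine replicate 2, at 7.32. Uchl3, a deubiquitinase, Srp54c, a signal recognition particle gene, and the zinc finger genes Zfp457, Zfp955a, Zfp942 and Zfp935 were lower on replicate 2 than on replicate 1 by 1.30 to 1.40. Of these, Uchl3, Srp54c, Zfp457, Zfp955a and Zfp935 were low on duloxetine replicate 2 as well. In the other direction Ceacam11 was higher on replicate 2 by 1.09, Acot3 by 0.99, Trim43c by 0.98 and Aadacl4fm4 by 0.97, followed by Hoxd12, Spin2d, Cd300ld3 and Dpep3 at 0.90 to 0.94. None of these 16 genes was called in limma (lowest adjusted p = 0.171, for Zfp942). The dim genes lay higher and the bright ones lower on replicate 2: the 5829 dimmest genes had a median of 0.27 above control there and 0.07 on replicate 1, and the 5822 brightest had -0.18 and -0.03. Among the dim genes 15 rose and 48 fell, among the 5816 of middle signal 15 and 135, and among the bright ones 17 and 74.

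The second comparison asked where mirtazapine differed from the 3 other drugs given at micromolar doses. The difference itself uses no control array, although the control arrays enter the pooled spread. The doses differed (50 µM against 5, 10 and 5 µM), so drug and dose cannot be told apart. No gene was called (0% of 17467 in limma; 3608 genes had an unadjusted p under 0.05, and the lowest adjusted p was 0.0722). With 1 array left out, 157 genes were called without either duloxetine array and 1032 without mirtazapine replicate 1, and 0 without mirtazapine replicate 2. The genes of lowest p were Cck, Tacr3 and Calb2. Under mirtazapine they lay below the mean of the 3 drugs by 0.70, 0.87 and 0.95 (adjusted p = 0.0722 each in limma). Both comparisons use the same mirtazapine arrays and pooled spread, so genes that lead both are no replication. Cck read 10.39 and 10.23 with amitriptyline, 10.53 and 10.44 with citalopram and 10.50 and 10.65 with imipramine, all above the mirtazapine arrays at 9.82 and 9.70. Next came Grp (-0.59), Lpl (-0.69) and Cyp7b1 (-0.62), each at an adjusted p of 0.0948.

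Each drug was also set beside the same 2 control arrays, so their differences share those arrays. For Tacr3 the difference from control was -1.57 with mirtazapine, -0.88 with amitriptyline, -0.59 with citalopram, -0.62 with imipramine and -0.50 with duloxetine. For Nts it was -1.79, -1.13, -0.73, -0.83 and -0.51 in the same order. For Hes5 the 4 micromolar drugs lay closer together, at -1.15, -0.85, -0.74 and -0.82, and duloxetine at -0.14. For Ptgs2 mirtazapine was not the highest, at 1.79 against 2.07, 2.14 and 2.37, with duloxetine at -0.45. For Vegfa the differences were 0.55, 0.43, 0.42, 0.30 and 0.08. Over the 257 genes that fell under mirtazapine the median difference from control was -0.70 with mirtazapine, -0.43 with amitriptyline, -0.33 with citalopram, -0.34 with imipramine and -0.22 with duloxetine. Over the 47 that rose it was 0.67, 0.46, 0.46, 0.53 and 0.16. Since these genes were chosen on the mirtazapine arrays, a larger value for mirtazapine follows in part from the choice.

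**Figure D5:**
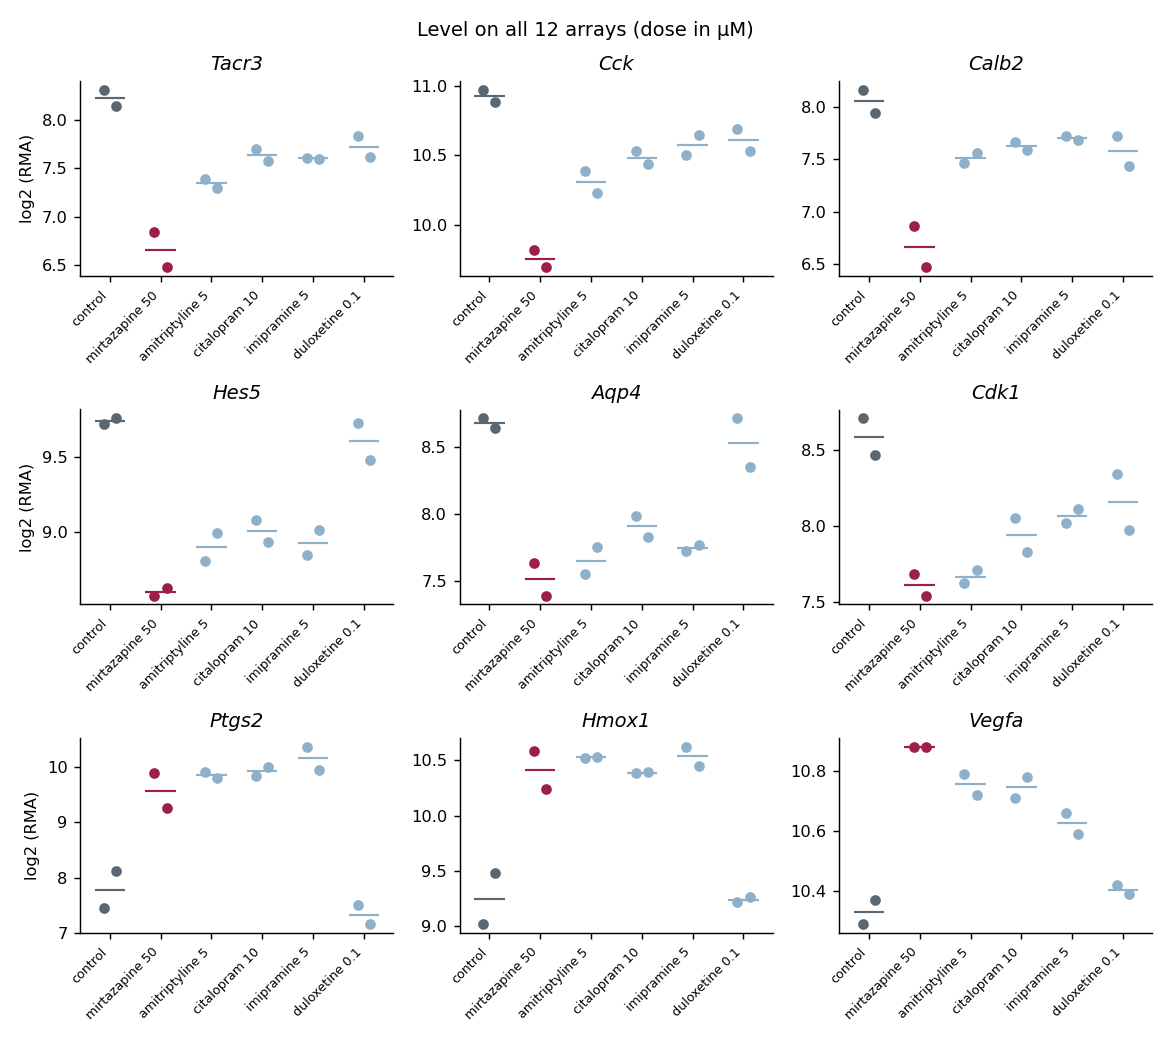
Expression (log2, RMA) of 9 genes on all 12 arrays by group, with the dose in µM after each drug, points for arrays and short lines for group means; the vertical axes do not start at 0. Cck, Tacr3 and Calb2 are lowest under mirtazapine, Ptgs2 and Hmox1 are at similar heights in the 4 micromolar drug groups, and duloxetine lies near control for Hes5, Aqp4, Hmox1 and Vegfa.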

How the data were processed

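The 12 Affymetrix whole-transcript arrays fell into 6 groups of 2, with groups and replicate numbers taken from the labels' titles. The authors deposited log2 values summarised by RMA in Affymetrix Expression Console, per the submitters' processing notes. Software versions, settings and the genome build were not given in the sources used here. Such values carry no counts, so depth cannot be stated.

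The platform annotation gave 23521 probe sets 1 symbol, 1814 several and 16010 none. A gene was represented by its brightest probe set. A single model with 6 group means was fitted to all arrays with limma 3.58.1 under R 4.3.3 (eBayes with no trend; 6 residual and 3.86 prior degrees of freedom), with tests of both directions and Benjamini-Hochberg adjustment over 17467 genes. The fit was tested on simulated data, where it called 26.9% of changes of 0.5 log2 units, 77.6% of 1 and 100% of 2. The simulated noise was independent for each gene and held no shift of a whole array.

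The members and the 36 gene lists were chosen with earlier results of these data known, and lists are described by counts and medians only. Named genes are the 20 falling and 15 rising calls of lowest p, the mirtazapine receptors, up to 8 called members of each list (or the 2 of lowest p where none was called) and the 16 genes that differed most between the mirtazapine arrays. Predicted genes, clones, olfactory and vomeronasal receptors and small RNAs were passed over. Stmn2, Sst, Gad1, Gad2, Ccnd1 and Tyms were chosen after their values were seen.

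Alternatives changed the filter, used every probe set, a trended and robust prior, weights per array, repeated quantile normalization, a replicate block, only the arrays compared or a minimum difference of 0.5, or left arrays out. Promoters are RefSeq's (GRCm38.p6). Plots were made in matplotlib 3.10.9 under Python 3.11.15.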

Additional observations from a re-analysis of the deposited data

How the results depend on the processing

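The count of 304 genes against control was 191 with no filter on low values, 110 with array weights and 14 with only the 4 arrays compared; the 50th percentile filter (440), every probe set (282), trend and robust (441), a second quantile normalization (348, of which 82 higher against 47) and leaving out both arrays that stand apart (370) kept it within 1.5 times. Leaving out 1 array gave 0 to 1450. Against the 3 drugs the count of 0 became 3 with the 50th percentile filter and 8 with trend and robust, and ranged from 0 to 1032 with 1 array left out. With the replicate block 234 genes were called against control, 223 of them among the 304, and 1 against the 3 drugs; deviations of same-numbered arrays correlated from -0.438 (amitriptyline and mirtazapine) to 0.712 (duloxetine and mirtazapine, whose replicates 2 both stand apart), with -0.04 between control and mirtazapine, so the numbers were not taken as pairs. Directions turned for 4 genes near 0, none of them called. Htr2a was at 0.064 after quantile normalization and 0.025 without both arrays that stand apart, and ranged from -0.295 to 0.175 with 1 array left out. Htr3a was at 0.035 without both and ranged from -0.045 to 0.035. The erythroid marker Tfrc was at 0.051 after quantile normalization and 0.23 without both, and ranged from -0.36 to 0.23. Adra2c ranged from -0.21 to 0.18. Tacr3, Cck, Lpl, Calb2 and Hes5 passed in 20 of 21 alternatives and failed without control replicate 1, where the lone control array was assumed to vary like the other groups. Without both arrays that stand apart, the lone mirtazapine array was likewise assumed to vary like the other groups. The causes were not tested. With 2 arrays a group, the 95% interval of the median gene reached 0.28 on each side.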

Other observations

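Genes of fatty acid oxidation and other targets of the PPAR receptors were looked at after their values had been seen, so their counts are a description. Of 27 tested, 7 fell and 0 rose in limma, and 24 differed downward, with a median of -0.36 (-0.28 on mirtazapine replicate 1 and -0.45 on replicate 2), against -0.04 over all genes. Over all 17467 genes 1.47% fell and 9622 differed downward. Pdk4, the kinase that turns cells from glucose to fat, was 7.55 and 7.10 in control and 6.24 and 6.59 under mirtazapine (-0.91 ± 0.16, adjusted p = 0.0278). Cpt1a, which lets fatty acids enter mitochondria, was 9.57 and 9.36 in control and 8.98 and 8.62 under mirtazapine (-0.67 ± 0.14, adjusted p = 0.049). Acsl5, an acyl-CoA synthetase (-0.92), Angptl4, an inhibitor of lipoprotein lipase (-0.81), Acaa2, the last enzyme of the mitochondrial cycle (-0.73), Phyh, which starts the breakdown of branched chains (-0.52), and the peroxisomal membrane protein Pxmp4 (-0.42) fell as well. Fabp3, a fatty acid carrier, did not differ (0.00), and Hadhb was split between the mirtazapine arrays at 7.18 and 5.98.

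Both enzymes of creatine synthesis fell, also noticed after their values were seen. Gamt went from 8.51 and 8.47 to 7.80 and 7.82 (-0.68 ± 0.10, adjusted p = 0.0182 in limma), with the replicates nearly equal. Gatm went from 9.04 and 9.09 to 8.61 and 8.17 (-0.68 ± 0.14, adjusted p = 0.0472), farther on replicate 2. The creatine transporter Slc6a8 differed by 0.21 in the other direction and was not called (adjusted p = 0.227).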
